A study of Mus musculus with 14 samples.

Results

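The 10 genes described here are Adgre1, Cd5l, C1qa, C1qb, C1qc, Mrc1, Cd163, Marco, Timd4 and Csf1r, which are commonly used to recognise tissue macrophages of the mouse marrow. They were matched by gene name in the deposited table of raw read counts, which holds 55335 genes, and each name matched 1 gene. All were measured by RNA-seq in 14 libraries of marrow cells sorted as Lineage-, CD45- and TdTomato+ from mice of the genotype Cdh5 CRE Rosa26 TdTomato, in which Cre driven by the endothelial Cdh5 gene switches on a red reporter. Every group, controls included, carried both alleles. The 4 groups were untreated mice (4 libraries), mice given total body irradiation (TBI) of 500 cGy from a caesium source (5 libraries), mice given 20 µCi of a non-targeted IgG radioimmunotherapy (IgG RIT, 3 libraries) and mice given 20 µCi of a CD45-targeted radioimmunotherapy (CD45 RIT, 2 libraries). The radionuclide is named in the study's title as astatine-211, an emitter of alpha particles, and the cells were harvested 8 days after treatment. Ages, and whether animals were pooled, are not given in the sources used here, nor is it stated whether the Cre was inducible. Cdh5 is also active in the embryonic vessel wall from which blood stem cells arise, so a Cdh5-driven Cre that is not inducible also marks blood cells. The comparison of the groups asks how each form of radiation left the sorted marrow cells.

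Resident macrophages of the marrow engulf expelled red cell nuclei, aged red cells and dying cells, and they recycle the iron. Their survival depends on CSF1R, the receptor kinase for the growth factors CSF1 and IL-34. They carry scavenger receptors and receptors for dying cells on their surface, and they secrete C1q, the protein that starts the classical complement pathway and coats debris for uptake.

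These genes were a small part of the sorted RNA and did not move as a block. Csf1r, Cd163 and Adgre1 were highest in untreated mice, with Csf1r lower after all 3 treatments. C1qb was higher after CD45 RIT in both libraries. C1qa was abundant in only 1 CD45 RIT library, and C1qc and Timd4 in only the other, while Mrc1 was at low counts everywhere with no call and Marco was close to 0 throughout. The F4/80 gene Adgre1, a defining marker of mouse macrophages, had 0 counts in all 5 RIT libraries. This marker was thus not detected there, which need not mean that it was absent.

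Total counts were 24787510 to 31077588 in untreated libraries, 16412779 to 24941973 after TBI, 21657745 to 22924390 after IgG RIT and 23320156 to 26823379 after CD45 RIT. Genes with counts numbered 23409 to 25399 in untreated libraries and 22123 to 26752 after TBI. They numbered 21660 to 22222 after IgG RIT, and 20994 and 17700 in the 2 CD45 RIT libraries. A count of 0 allows up to 3 counts, or 0.0785 to 0.215 CPM (counts scaled to a common library size) depending on the library, for counting error only. The 2 CD45 RIT libraries correlated with each other at 0.673 (Pearson r of log2 CPM across genes, which are not independent replicates), against 0.906 to 0.979 for pairs within the other groups. Endothelial markers were mixed. Cdh5 had 0 to 6 counts in untreated libraries, 0 to 5 after TBI and 0 in all RIT libraries. Pecam1, the CD31 gene, averaged 44.3 CPM in untreated libraries and 0.279 after CD45 RIT, while Eng, the endoglin gene, averaged 29.5 and 37.7 CPM in these groups. Ptprc, the CD45 gene that the gate excluded, averaged 72.7 CPM in untreated libraries, 31.0 after TBI and 10.4 after IgG RIT. The 2 CD45 RIT libraries differed, at 0.0609 and 31.8 CPM. The libraries carry running numbers in their labels, and all RIT libraries and TBI replicate 6 have higher numbers (10 to 16) than all other libraries (1 to 9), so that RIT and this number cannot be told apart. TBI replicate 6 also stood apart, with the erythroid marker sum at 159634 CPM against 24265 to 41729 in the other TBI libraries. Nothing in the labels says that the libraries of a group came from separate mice, so p-values measure the spread between these libraries, which may be technical.

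Levels are given as CPM, on library sizes scaled by TMM (trimmed mean of M values), with the SD over libraries. Tests are edgeR's quasi-likelihood test on the counts, fitted to all 14 libraries and 21509 genes that passed a filter on low counts, and a gene is called at a Benjamini-Hochberg adjusted p under 0.05 over all of these genes. Marco did not pass that filter, and the other 9 genes did. C1qa, Cd5l and Timd4 passed through the few libraries that held their counts, and numbers of called genes among the 9 are therefore descriptions. In bulk RNA, fewer cells of a type and less RNA per cell cannot be told apart.

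Csf1r (ENSMUSG00000024621.16, chromosome 18, 61100598 to 61132149, plus strand, GRCm38) held 54.9% of all counts of the 10 genes. It had 1935, 1154, 1472 and 1363 counts in the untreated libraries, 277, 308, 187, 307 and 88 after TBI, 220, 83 and 73 after IgG RIT, and 43 and 60 after CD45 RIT. No treated library reached the lowest untreated one, and the CD45 RIT libraries lay below all others on the CPM scale. The level was 45.4 ± 7.37 CPM (SD, n = 4) in untreated mice, 9.21 ± 1.75 (n = 5) after TBI, 6.90 ± 5.05 (n = 3) after IgG RIT and 2.75 ± 0.187 (n = 2) after CD45 RIT. Against untreated mice Csf1r fell by 2.30 on the log2 scale after TBI (SE 0.37, edgeR adjusted p = 0.00495). After IgG RIT it fell by 2.72 (SE 0.46, edgeR adjusted p = 0.00358), and after CD45 RIT by 4.04 (SE 0.59, edgeR adjusted p = 3.49e-04). These 3 calls held when any 1 library was left out, and without TBI replicate 6 the change after TBI was -2.19.

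Among the treated groups, Csf1r fell by a further 1.74 after CD45 RIT relative to TBI (SE 0.51, edgeR adjusted p = 0.0173). The neighbouring levels were not called, with a log2 difference of -0.42 between IgG RIT and TBI (SE 0.40, edgeR adjusted p = 0.612) and of -1.32 between CD45 RIT and IgG RIT (SE 0.53, edgeR adjusted p = 0.0639). Leaving out IgG RIT replicate 1, the highest of its group, moved the difference between CD45 RIT and IgG RIT to -0.53. That difference was called without IgG RIT replicate 2 or 3 (lowest adjusted p = 0.0364) and by DESeq2 (adjusted p = 0.0264). Csf1r shares 873 of its 5774 exon bases (15.1%) with Hmgxb3 on the opposite strand, and whether counting used strand is not given in the sources used here. Hmgxb3, named here because of that overlap and after its values had been seen, was not called against untreated mice, with log2 fold changes of -0.07, -1.09 and -1.87 after TBI, IgG RIT and CD45 RIT (edgeR adjusted p = 0.977, 0.227 and 0.0656).

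**Figure D1:**
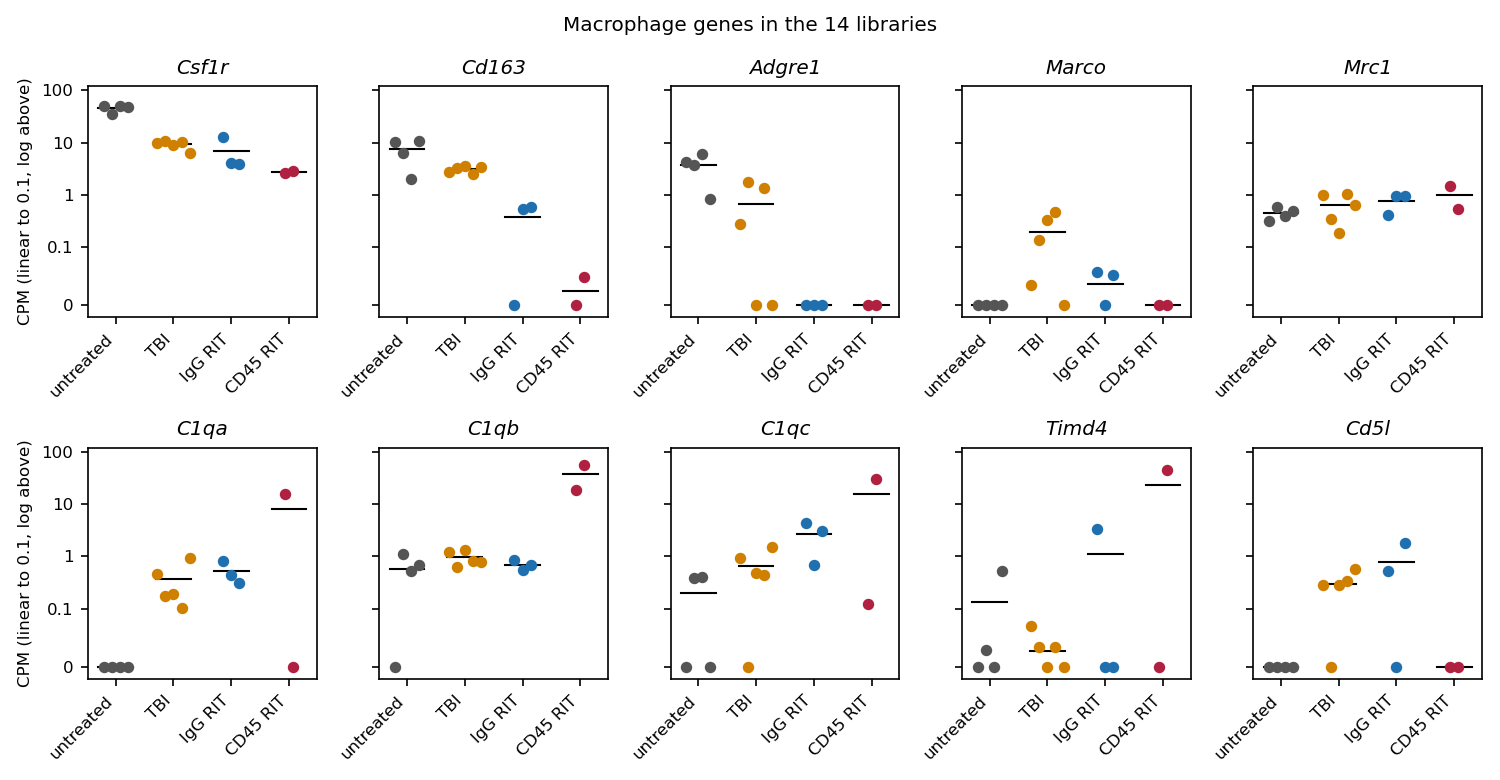
CPM of each of the 10 genes in the 14 libraries by treatment group (vertical axis linear to 0.1 and logarithmic above). Points are libraries and lines are group means. Csf1r, Cd163 and Adgre1 are highest in untreated mice, C1qb is high in both CD45 RIT libraries, and C1qa, C1qc and Timd4 are each high in 1 of them.

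Adgre1 (ENSMUSG00000004730.15, chromosome 17, 57358691 to 57483527, plus strand) encodes the adhesion receptor F4/80. Its counts were 165, 126, 181 and 24 in untreated libraries, 8, 50, 0, 40 and 0 after TBI, and 0 in every RIT library. The TBI libraries were split between 0 and 1.73 CPM and overlapped the lowest untreated library, at 0.831 CPM. The level in untreated mice was 3.74 ± 2.17 CPM (SD, n = 4). This mean was at least 23.3-fold higher than after IgG RIT and at least 22.9-fold higher than after CD45 RIT, with 3 counts per library as the floor. The spread between untreated libraries is not in these bounds. Both falls were called (edgeR adjusted p = 0.0309 and 0.0373), but not firmly. The first was lost without untreated replicate 1, 2 or 3 or any IgG RIT library, with an adjusted p of up to 0.0827. The second was lost without untreated replicate 1, 2 or 3, TBI replicate 1 or 5 or either CD45 RIT library, with an adjusted p of up to 0.102. After TBI the log2 fold change was -2.44 (SE 1.24, edgeR adjusted p = 0.351).

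The scavenger receptors behaved differently from each other. Cd163 (ENSMUSG00000008845.9, chromosome 6, 124304656 to 124330527, plus strand) takes up complexes of haemoglobin and haptoglobin. It had 398, 212, 60 and 313 counts in untreated libraries, 77, 94, 75, 75 and 47 after TBI, 0, 11 and 11 after IgG RIT, and 0 and 1 after CD45 RIT. Untreated replicate 3, at 2.00 CPM, lay below all TBI libraries, at 2.54 to 3.58 CPM, whereas every RIT library lay below every TBI and untreated library. The level was 7.40 ± 4.13 CPM (n = 4) in untreated mice, 3.09 ± 0.441 (n = 5) after TBI and 0.375 ± 0.325 (n = 3) after IgG RIT. After IgG RIT Cd163 fell by 4.27 on the log2 scale (SE 1.00, edgeR adjusted p = 0.0144). After CD45 RIT, where a single count was found over both libraries, the untreated rate was 280 times as high (95% interval 50.2 to 11084, counting error only) and the fall was called (edgeR adjusted p = 0.00246). Both calls held when any 1 library was left out. The change after TBI, -1.26 (SE 0.72, edgeR adjusted p = 0.405), was not called.

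Mrc1 (ENSMUSG00000026712.3, chromosome 2, 14229392 to 14332057, plus strand), the mannose receptor CD206, was detected in every library at 4 to 31 counts. Its counts were 12, 20, 12 and 14 in untreated libraries, 28, 10, 4, 31 and 9 after TBI, 7, 19 and 18 after IgG RIT, and 24 and 11 after CD45 RIT. The groups overlapped and no comparison was called. The log2 fold changes against untreated mice were 0.52 after TBI (SE 0.59), 0.76 after IgG RIT (SE 0.66) and 1.14 after CD45 RIT (SE 0.73), with edgeR adjusted p-values of 0.743, 0.452 and 0.238. Marco (ENSMUSG00000026390.7, chromosome 1, 120474538 to 120505024, minus strand), a receptor for bacteria and particles, had 0 counts in untreated and CD45 RIT libraries, 1, 4, 7, 14 and 0 after TBI, and 1, 0 and 1 after IgG RIT. It was not tested.

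C1q is built from 3 chains that are encoded side by side on the minus strand of chromosome 4. C1qa (ENSMUSG00000036887.5) lies at 136895917 to 136898803, C1qc (ENSMUSG00000036896.5) at 136889804 to 136893065 and C1qb (ENSMUSG00000036905.8) at 136880129 to 136886187. A complete C1q molecule needs all 3 chains, and macrophages normally express the genes together. The sequences shown are the 250 bases before the start site of C1qb, of the dying-cell receptor gene Timd4 and of Cd163, as examples with a promoter entry of a gene that was higher in both CD45 RIT libraries, one that was high in a single one and one that was lower in both (RefSeq, GRCm38.p6, 5′ to 3′ on the gene's strand). Capitals mark matches on either strand to the letters GAGGAA (PU.1), GGAAGT (ETS) and TGCTGA (MAF), named for the factor families whose sites contain them.
C1qb, chr4:136886201-136886450, minus strand: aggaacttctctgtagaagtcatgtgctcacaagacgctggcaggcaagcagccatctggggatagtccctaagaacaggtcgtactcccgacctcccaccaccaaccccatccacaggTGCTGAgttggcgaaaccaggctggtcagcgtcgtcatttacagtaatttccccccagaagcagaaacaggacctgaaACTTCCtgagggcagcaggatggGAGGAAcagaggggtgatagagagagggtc
Timd4, chr11:46810549-46810798, plus strand: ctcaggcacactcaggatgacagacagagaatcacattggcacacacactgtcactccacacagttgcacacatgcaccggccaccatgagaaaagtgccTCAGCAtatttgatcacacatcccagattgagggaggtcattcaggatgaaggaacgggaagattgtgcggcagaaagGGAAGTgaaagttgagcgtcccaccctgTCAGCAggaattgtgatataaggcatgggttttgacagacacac
Cd163, chr6:124304401-124304650, plus strand: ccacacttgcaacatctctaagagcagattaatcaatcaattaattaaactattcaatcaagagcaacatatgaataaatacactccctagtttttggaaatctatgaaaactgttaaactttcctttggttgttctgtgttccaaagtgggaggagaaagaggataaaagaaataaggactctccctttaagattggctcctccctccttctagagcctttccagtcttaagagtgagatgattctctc
C1qb held 1 match to each of the 3 letter sets, Timd4 held 1 ETS and 2 MAF matches, and Cd163 held none. The Cd163 window also overlaps an exon of Gm25311. Of the 10 genes, 7 were in the RefSeq promoter table, and C1qa, Adgre1 and Csf1r were not. The PU.1 letters were found in 5 of the 7, the ETS letters in 4 and the MAF letters in 3, against 23.3%, 19.7% and 16.1% of all 32851 promoters of the same length. PU.1 and ETS letters can share bases, as they do in C1qc. The TATA letters TATAAA were found in 0 of the 7 and in 12.4% of all promoters. A match is only a run of letters, and no binding was measured.

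C1qb had 0, 37, 16 and 20 counts in untreated libraries, 35, 18, 28, 24 and 11 after TBI, 15, 11 and 13 after IgG RIT, and 303 and 1173 after CD45 RIT. Both CD45 RIT libraries lay above all 12 others. The level was 37.4 ± 26.8 CPM (SD, n = 2) after CD45 RIT and 0.583 ± 0.458 (n = 4) in untreated mice. The log2 fold change after CD45 RIT was 6.00 against untreated mice (SE 1.06, edgeR adjusted p = 0.00128), 5.28 against TBI (SE 0.94, edgeR adjusted p = 9.56e-04) and 5.73 against IgG RIT (SE 1.18, edgeR adjusted p = 0.00279). Each of these calls held when any 1 library was left out. After TBI, at 0.959 ± 0.309 CPM (n = 5), and IgG RIT, at 0.700 ± 0.161 CPM (n = 3), C1qb was not called against untreated mice (log2 fold changes 0.72 and 0.26, edgeR adjusted p = 0.739 and 0.872).

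The other C1q chains did not follow C1qb in both CD45 RIT libraries. C1qa had 258 counts in CD45 RIT replicate 1 and 0 in replicate 2, whereas C1qc had 2 and 637. Of the C1q transcripts scaled for gene length, replicate 1 thus held 47.0% C1qa, 52.8% C1qb and 0.196% C1qc, and replicate 2 held 0% C1qa, 76.6% C1qb and 23.4% C1qc. No CD45 RIT library therefore had more than 3 counts for all 3 chains, while all 3 IgG RIT libraries and 3 of 5 TBI libraries did, at low counts. In the untreated libraries C1qa was at 0 counts throughout and C1qc had 0, 13, 12 and 0.

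The calls for C1qa and C1qc rest on single libraries. C1qa after CD45 RIT was at least 84.5-fold higher than in untreated mice with 3 counts per library as the floor (edgeR adjusted p = 0.00551), and without CD45 RIT replicate 1 both groups were at 0. C1qc after CD45 RIT had a log2 fold change of 6.25 (SE 1.91, edgeR adjusted p = 0.0253), which became -0.69 without replicate 2 and lost its call without untreated replicate 4 (adjusted p = 0.0541). C1qa had 13, 5, 4, 3 and 13 counts after TBI and 14, 9 and 6 after IgG RIT, so that each of these libraries lay above the untreated counts of 0. TBI replicate 5, at 3 counts, did not exceed the floor. The rise after IgG RIT was at least 5.64-fold and was called (edgeR adjusted p = 0.0481). That call was lost when any untreated or IgG RIT library, or TBI replicate 1, 3, 4 or 5, was left out, with an adjusted p of up to 0.111, and without the filter on low counts (adjusted p = 0.0517). After TBI the difference was at least 3.99-fold and was not called (edgeR adjusted p = 0.112). This difference was called without CD45 RIT replicate 1 or 2, but the share of all genes called rose as well. C1qc had 26, 0, 10, 13 and 21 counts after TBI and 76, 14 and 57 after IgG RIT, with log2 fold changes of 1.72 (SE 1.50) and 3.74 (SE 1.69) that were not called (edgeR adjusted p = 0.638 and 0.145). The second was called without CD45 RIT replicate 1, a fit in which the share of all genes called rose as well.

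**Figure D2:**
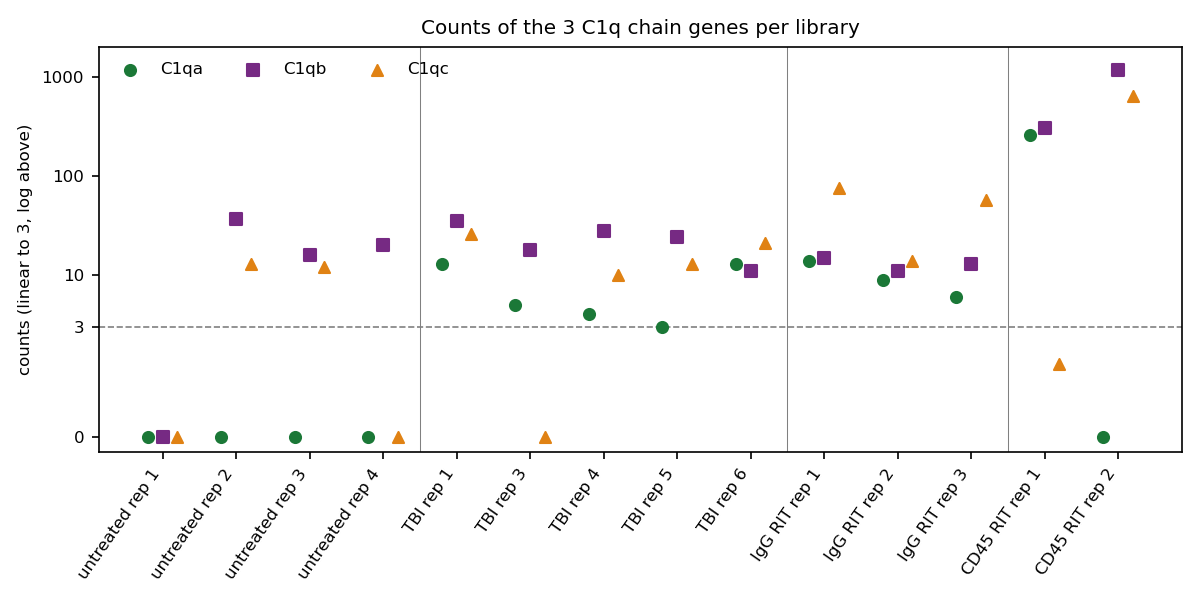
Raw counts of C1qa (circles), C1qb (squares) and C1qc (triangles) in each library (vertical axis linear to 3 counts and logarithmic above, dashed line at 3 counts). CD45 RIT replicate 1 held 258, 303 and 2 counts of the 3 genes and replicate 2 held 0, 1173 and 637.

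Timd4 (ENSMUSG00000055546.6, chromosome 11, 46810800 to 46844332, plus strand) encodes TIM-4, a receptor for phosphatidylserine on dying cells that marks long-lived resident macrophages. Its counts were 0, 1, 0 and 15 in untreated libraries, 2, 1, 0, 1 and 0 after TBI, 58, 0 and 0 after IgG RIT, and 0 and 940 after CD45 RIT. Nearly all of its counts thus came from CD45 RIT replicate 2, the library in which C1qc was also high. The log2 fold change after CD45 RIT was 7.35 (SE 2.42, edgeR adjusted p = 0.0348), but CD45 RIT replicate 1 lay at 0, within the untreated range. The value became -4.72 without replicate 2, and the call was lost without untreated replicate 1, 2 or 3 or TBI replicate 5 (adjusted p = 0.0690, 0.0834, 0.0764 and 0.0501). Timd4 was not called after TBI or IgG RIT (log2 fold changes -1.93 and 3.01, edgeR adjusted p = 0.732 and 0.330), and without IgG RIT replicate 1 the second became -4.81. Cd5l (ENSMUSG00000015854.7, chromosome 3, 87357881 to 87371073, plus strand) encodes a secreted protein, AIM, that supports macrophage survival. It had 0 counts in all untreated and CD45 RIT libraries, 8, 0, 6, 10 and 8 after TBI, and 9, 0 and 35 after IgG RIT. IgG RIT replicate 2 lay at 0 like the untreated libraries. The rise after IgG RIT was at least 8.45-fold and was called (edgeR adjusted p = 0.0399). That call was lost in 9 of 14 fits that left out 1 library, namely any untreated library, TBI replicate 1, 4 or 5 or IgG RIT replicate 1 or 3, with an adjusted p of up to 0.106. After TBI the rise was at least 3.18-fold and was not called (edgeR adjusted p = 0.129).

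Per kilobase of gene length, the order of the genes was turned over after CD45 RIT. In untreated mice Csf1r led at 7.86 ± 1.28 RPKM (CPM divided by gene length in kilobases, SD, n = 4), followed by Cd163 at 1.36 ± 0.757, Adgre1 at 1.15 ± 0.669 and C1qb at 0.536 ± 0.421, and the last 3 overlapped between libraries. After CD45 RIT, C1qb led at 34.4 ± 24.7 RPKM (n = 2), Timd4, C1qc and C1qa averaged 10.4, 7.96 and 7.56 from 1 library each, and Csf1r was at 0.477 ± 0.0324. Summed over the 10 genes on total counts, the level was 69.4 ± 9.89 CPM in untreated libraries, 17.8 ± 3.68 after TBI and 11.4 ± 6.28 after IgG RIT, and 27.0 and 105 in the 2 CD45 RIT libraries. The sum after CD45 RIT thus lay on both sides of the untreated range, 56.6 to 80.8.

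**Figure D3:**
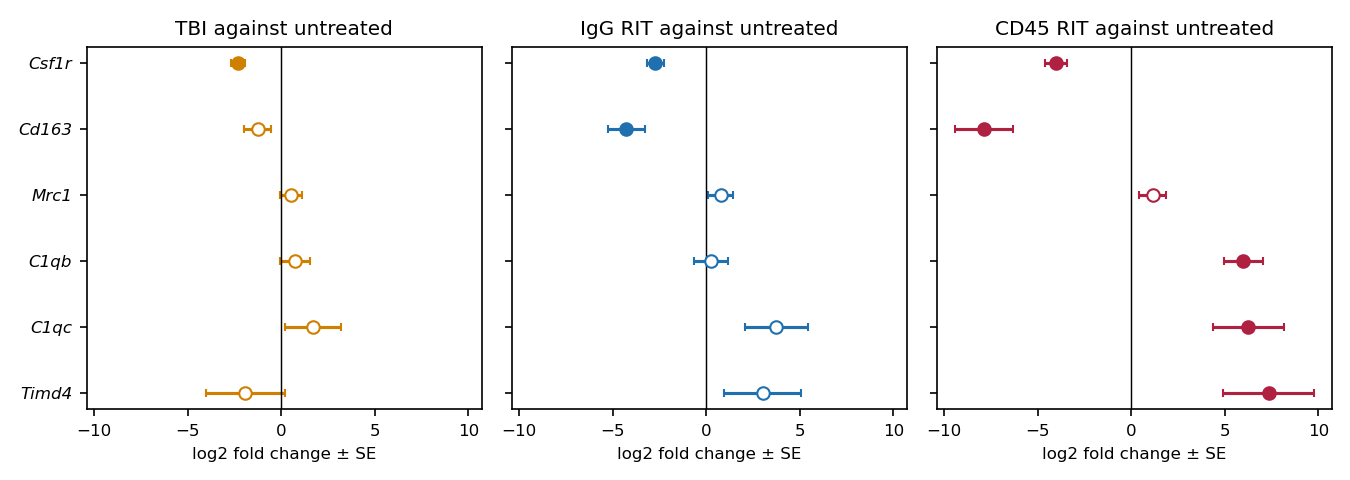
Log2 fold change ± SE of 6 of the genes against untreated mice, from edgeR, for TBI, IgG RIT and CD45 RIT. Filled points are called at an adjusted p under 0.05. Csf1r lies left of 0 in all 3 panels (-2.30, -2.72 and -4.04) and C1qb lies at 6.00 after CD45 RIT, and the genes at 0 counts in a whole group are left out.

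Counted over the 9 tested genes, 1 was called after TBI (Csf1r, lower), when 4.31% of all tested genes were called. After IgG RIT 5 were called against 16.4% of all genes, 2 of them higher (C1qa and Cd5l, background 5.75%) and 3 lower (Adgre1, Cd163 and Csf1r, background 10.7%). After CD45 RIT 7 were called against 33.1% of all genes, 4 of them higher (C1qa, C1qb, C1qc and Timd4, background 14.5%) and 3 lower (the 3 that were lower after IgG RIT, background 18.6%). The 3 comparisons share the untreated libraries. Without either CD45 RIT library C1qa was also called after TBI, but the share of all genes called rose as well. After IgG RIT the count was 2 without untreated replicate 1, 2 or 3 or IgG RIT replicate 1 or 3. Over all genes 1774 to 2563 were called in these fits, against 3536 with all libraries. The count among the 9 was 3 without untreated replicate 4, TBI replicate 1, 4 or 5 or IgG RIT replicate 2. With 1906 to 3157 genes called in all, the background was lower in these fits too. After CD45 RIT the count among the 9 also fell without CD45 RIT replicate 2, a fit that leaves 1 library in that group. Csf1r was called in all of these fits, Cd163 in those of both RIT forms and C1qb in those of CD45 RIT. The CD45 RIT libraries did not overlap the untreated ones for 4 genes, C1qb, Adgre1, Cd163 and Csf1r, when 47.3% of all genes did not overlap. The median log2 fold change of the 9 genes was 0.52 after TBI, 0.76 after IgG RIT and 1.14 after CD45 RIT, beside -0.16, -0.42 and -0.37 for all tested genes. The median gene was Mrc1 each time, with genes that moved in opposite directions on either side of it.

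Between treatments, CD45 RIT against TBI called 6 of the 9 genes, against 38.6% of all genes. C1qa, C1qb, C1qc and Timd4 were higher (4 genes, background 19.6%), with log2 fold changes of 4.42, 5.28, 4.54 and 9.28, and Csf1r and Cd163 were lower (2 genes, background 19%). The value for C1qa became -6.23 without CD45 RIT replicate 1, and those for C1qc and Timd4 became -2.56 and -2.86 without replicate 2. The C1qa call was also lost without TBI replicate 1, 3, 4 or 5 or any IgG RIT library (edgeR adjusted p up to 0.0815). The C1qc call was also lost without untreated replicate 2 or 3 or any TBI or IgG RIT library (edgeR adjusted p up to 0.0909). Without the filter on low counts C1qa and C1qc were not called in this comparison (adjusted p = 0.0564 and 0.0642), nor without scaling factors (adjusted p = 0.0515 and 0.0569). Cd163 had a TBI rate 113 times that after CD45 RIT (95% interval 20.1 to 4458, counting error only, edgeR adjusted p = 0.00398). CD45 RIT against IgG RIT, the pair that differs in what the antibody binds, called 1 of 9 genes, C1qb, against 37.7% of all genes. Leaving out IgG RIT replicate 1 or 2 gave 3 calls, and leaving out IgG RIT replicate 3 gave 2. Over all genes 6359 to 6733 were called in these fits, against 8108 with all libraries. IgG RIT against TBI called 0 of 9 by edgeR against 0.242% of all genes, with 3 at an unadjusted p under 0.05 (Adgre1, Cd163 and Timd4, background 18.5%). DESeq2 called 2 of them, Adgre1 and Cd163, and 2097 of 19500 genes in all. edgeR called Cd163 without CD45 RIT replicate 1, a fit in which the share of all genes called rose as well.

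The ligands of the receptor fell or were lower with it after TBI and IgG RIT, and were higher after CD45 RIT. Csf1, the growth factor that CSF1R binds, fell with Csf1r after TBI, from 49.9 ± 12.3 to 8.50 ± 1.89 CPM (log2 fold change -2.55, edgeR adjusted p = 0.00299). After IgG RIT it fell by 1.64 on the log2 scale (edgeR adjusted p = 0.0224), a call that was lost without IgG RIT replicate 1 (adjusted p = 0.0821). After CD45 RIT it rose to 892 ± 96.5 CPM (n = 2, log2 fold change 4.16, edgeR adjusted p = 4.81e-05), while the receptor was at its lowest. Il34, the other ligand, added after its values had been seen, was at 22.8 CPM in untreated libraries, 1.78 after TBI, 2.07 after IgG RIT and 412 after CD45 RIT, with no call (log2 fold changes -3.74, -3.46 and 4.18, edgeR adjusted p = 0.149, 0.159 and 0.0592). In the list of 12 ligands and macrophage transcription factors to which both belong, 0 rose and 2 fell after TBI, 0 rose and 3 fell after IgG RIT, and 6 rose and 3 fell after CD45 RIT. Of all tested genes 0.921% were called higher and 3.38% lower after TBI. These shares were 5.75% and 10.7% after IgG RIT, and 14.5% and 18.6% after CD45 RIT. The median log2 fold changes of the list were -2.50, -1.44 and 2.91. After CD45 RIT the rising factors included Cebpb, Id3, Maf and Nr1h3, and the falling ones were Irf8, Spi1 and Tfec. Irf8, a factor of monocyte and dendritic cell development, went from 223 CPM in untreated mice to 36.8 after TBI, 31.0 after IgG RIT and 25.0 after CD45 RIT, and the falls after IgG RIT and CD45 RIT were called (edgeR adjusted p = 0.0398 and 0.0335). The first call was lost in 10 of 14 fits that left out 1 library, all except those without TBI replicate 6, IgG RIT replicate 3 or a CD45 RIT library, with an adjusted p of up to 0.131. The second was lost without untreated replicate 2, 3 or 4 or CD45 RIT replicate 1, with an adjusted p of up to 0.107. Spi1, which encodes PU.1 and was singled out after its values had been seen, had 102 CPM in untreated and 0 and 4.27 CPM in the CD45 RIT libraries (log2 fold change -5.59, edgeR adjusted p = 0.00851). Id3 and Cebpb rose after CD45 RIT by 3.56 and 2.26 on the log2 scale (edgeR adjusted p = 1.93e-04 and 3.29e-04).

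Of 26 other macrophage genes, 19 were tested. After TBI 6 fell and 0 rose, after IgG RIT 4 fell and 0 rose, and after CD45 RIT 4 rose (Cd68, Siglec1, Stab1 and Vcam1) and 4 fell (Fcer1g, Fcgr3, Itgam and Tyrobp). Of all tested genes 3.38% were called lower after TBI and 10.7% after IgG RIT. After CD45 RIT 14.5% were called higher and 18.6% lower, and the counts of this list were near these 2 shares. Of the 4 that rose, Vcam1 lay above the untreated range in both CD45 RIT libraries and the other three overlapped it. Siglec1 had 170 and 0 counts there, so that its signal came from replicate 1 alone, and Cd68 had 17.5 and 71.9 CPM against 10.6 to 17.7 in untreated libraries. The median log2 fold changes were -2.05, -2.30 and 1.15. Tyrobp and Fcer1g, the signalling adaptors of myeloid cell receptors, fell in all 3 comparisons. Tyrobp averaged 147 CPM in untreated libraries and 12.7, 13.0 and 8.16 after TBI, IgG RIT and CD45 RIT, and Fcer1g averaged 96.1, 9.74, 10.0 and 36.4. The fall of Fcer1g after CD45 RIT lost its call without any 1 untreated library, TBI replicate 5 or CD45 RIT replicate 1. Vcam1, an adhesion molecule of macrophages and of stromal and endothelial cells, took most of the summed level of this list after CD45 RIT, at 3182 ± 474 CPM against 78.5 ± 25.3 in untreated mice (log2 fold change 5.34, edgeR adjusted p = 2.97e-04). Lyz2, the lysozyme of myeloid cells, averaged 74.7 CPM in untreated and 64.3 CPM in CD45 RIT libraries (log2 fold change -0.22, edgeR adjusted p = 0.806).

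C1q works with further proteins, and a list of 10 of its partners and regulators was tested. After TBI 6 fell, after IgG RIT 5 fell, and after CD45 RIT 6 rose (C1ra, C1s1, C2, C4b, Lrp1 and Serping1) and 1 fell (C1qbp), with median log2 fold changes of -2.14, -1.42 and 3.40. Serping1, the inhibitor of the C1 proteases, averaged 277 CPM in untreated mice, 28.1 after TBI, 70.2 after IgG RIT and 2977 after CD45 RIT. C4b, the complement protein that C1 cleaves, averaged 56.6, 12.0, 33.3 and 700 CPM, and its log2 fold change after CD45 RIT was 3.63 (edgeR adjusted p = 2.57e-04). C1qb was thus high in the same libraries as these partners, and it was not called after TBI. Of 12 genes of iron handling, 3 fell after TBI, 4 rose and 2 fell after IgG RIT, and 6 rose after CD45 RIT (Cp, Ftl1, Hmox1, Lrp1, Slc40a1 and Trf), with medians of -0.15, 0.11 and 2.77. Beside both lists, 3.38% of all tested genes were called lower after TBI. The shares called higher and lower were 5.75% and 10.7% after IgG RIT, and 14.5% and 18.6% after CD45 RIT. Trf, which encodes the iron carrier transferrin, averaged 281 CPM in untreated mice and 3519 after CD45 RIT, and Blvrb, an enzyme of haem breakdown that red cell precursors also express, averaged 692 and 609 CPM there and 2835 after IgG RIT.

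Markers of other cell types moved with these results, and their part in them was not tested. Sums are CPM on total counts. For the numbers called, 3.38% of all tested genes were called lower after TBI and 10.7% after IgG RIT. The shares called higher and lower after CD45 RIT were 14.5% and 18.6%. All 10 of 10 general blood cell markers were tested, and their sum was 2348 to 2785 in untreated libraries, 246 to 1498 after TBI, 234 to 448 after IgG RIT and 137 to 195 after CD45 RIT. The value of 246 was TBI replicate 6, and the other TBI libraries had 1039 or more. Of the 10 markers 0 were called after TBI, 3 were called lower after IgG RIT and 8 lower after CD45 RIT. All 12 monocyte markers were tested and summed to 1140 to 1290, 37.4 to 210, 39.3 to 157 and 52.8 to 369 CPM. Fcgr4 and Ms4a4c were at 0 after IgG RIT and Ly6c2, Ccr2 and Fcgr4 were among those at 0 after CD45 RIT. In the CD45 RIT libraries 6 of the 12 were called lower and 1, Ace, higher, and F13a1 ranged from 24.9 to 341 CPM against a mean of 82.2 in untreated mice (not called, edgeR adjusted p = 0.328). By group, Csf1r and Cd163 were lowest after CD45 RIT, where the blood cell sum was lowest, and Adgre1 was at 0 after both RIT forms. Single libraries did not all follow the sum. IgG RIT replicate 1, with a blood cell sum of 271, had 220 counts of Csf1r. IgG RIT replicate 3, with a sum of 448, had 73 counts, at total counts of 21657745 and 22795727. All 16 stromal markers were tested and none was at 0 in a whole group. They summed to 3992 to 9658 CPM in untreated mice, 1218 to 2482 after TBI, 819 to 1599 after IgG RIT, and 42574 and 79976 after CD45 RIT, where 15 of 16 were called higher. The 2 libraries with high C1qb, Csf1 and Serping1 were therefore also those with the highest stromal sums. Of 12 erythroid markers 11 were in the table, and they summed to 7999 to 14070 CPM in untreated mice, 24265 to 159634 after TBI, 129768 to 130524 after IgG RIT, and 43382 and 180840 after CD45 RIT. Of 10 dendritic cell markers 9 were tested. The sum of the 10 was 210 to 382 CPM in untreated mice, 37.9 to 111 after TBI, 34.1 to 61.0 after IgG RIT and 25.3 to 55.4 after CD45 RIT. Clec9a and Cd209a were at 0 after both RIT forms, and Xcr1 and Itgax after CD45 RIT only. Of 10 osteoclast markers 5 were tested. The sums of the 10 were 199 to 256 CPM in untreated mice, 171 to 311 after TBI and 359 to 412 after IgG RIT. After CD45 RIT they were 157 and 441. Dcstamp was at 0 in every group, Oscar in all groups but TBI, and Ocstamp in all groups but the untreated one. All 10 neutrophil markers were tested and summed to 9722 to 12142 CPM in untreated mice, 80.3 to 1142 after TBI, 554 to 746 after IgG RIT, and 5.70 and 14.8 after CD45 RIT, with Ngp and Mmp8 at 0 in the last group. Mpo made up most of this sum in untreated mice. Only Mpo, Elane and Prtn3 of the 10 were called lower after TBI and after IgG RIT, and the list's median log2 fold changes were -0.29 and 1.19, so the sum does not speak for its other genes. The 20 endothelial markers, 15 of them tested, summed to 210 to 263 CPM in untreated mice, 45.8 to 185 after TBI, 37.7 to 66.4 after IgG RIT, and 151 and 397 after CD45 RIT. Cdh5, Tek, Sox17 and Stab2 were at 0 in both RIT groups, with Emcn, Tie1 and Icam2 also at 0 after CD45 RIT. After CD45 RIT 4 of the 15 were called higher (Cavin2, Flt4, Kdr and Plvap) and 5 lower (Egfl7, Erg, Icam2, Pecam1 and Tie1).

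**Figure D4:**
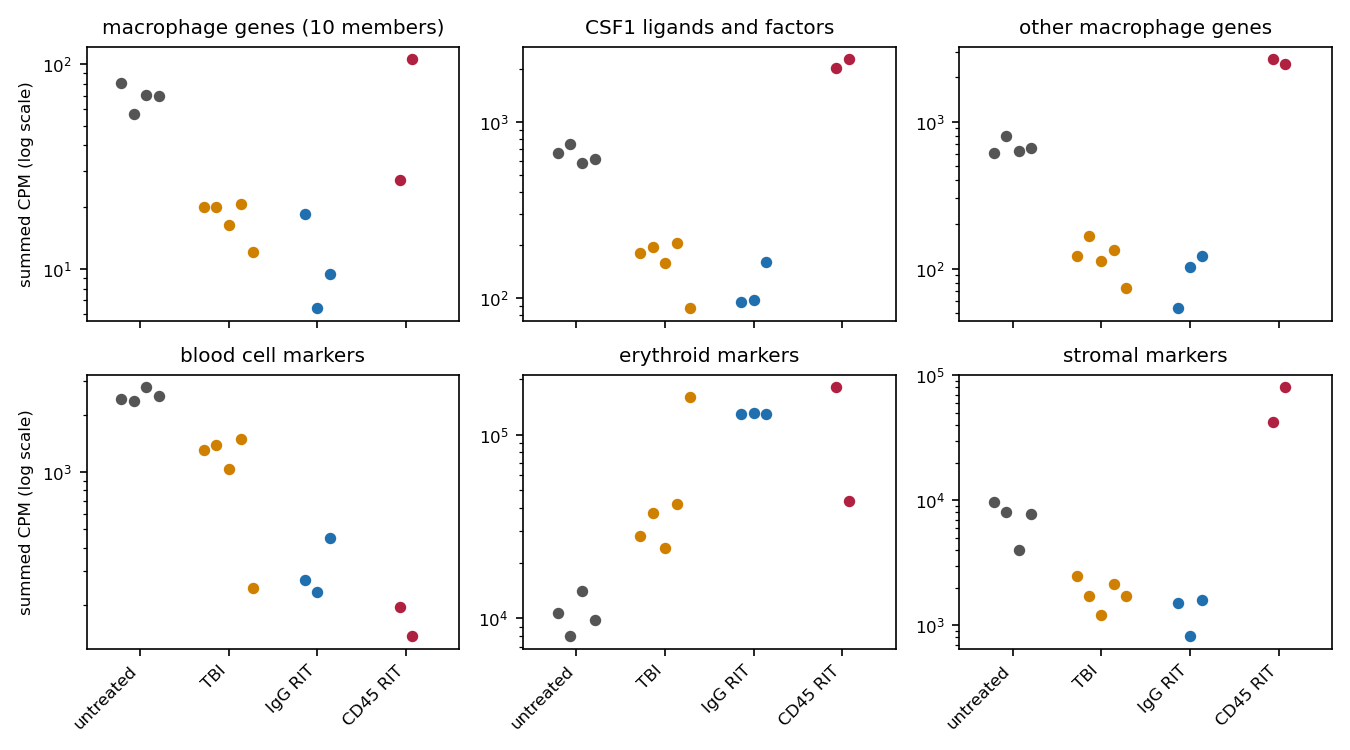
Summed CPM (on total counts, logarithmic axes with a scale of their own in each panel) of 6 gene lists per library, by treatment group. Each point is 1 library. Blood cell marker sums are highest in untreated mice (2348 to 2785) and stromal sums are highest in the 2 CD45 RIT libraries (42574 and 79976).

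The protein-coding genes whose log2 CPM most resembled each gene over the 14 libraries were taken from 8213 candidates whose mean log2 CPM was 3 or more. The Pearson r values are descriptions, since the libraries fall into the 4 treatment groups and share depth and cell makeup. For Csf1r they were H2-DMa (0.935), Lta4h (0.913) and Cd34 (0.899). H2-DMa is a chaperone of MHC class II, and Cd34 is a surface protein of blood progenitors and endothelium. For Cd163 they were Epx (0.941), the peroxidase of eosinophils, and Prss34 (0.934) and Mcpt8 (0.918), proteases of basophils and mast cells. For Adgre1 they were Ifitm1 (0.888), Cmtm7 (0.871) and Msra (0.867). The nearest gene was Prdx4 (0.942) for C1qb, Zfp948 (0.915) for C1qa, Mtrf1l (0.929) for C1qc, Atg13 (0.928) for Timd4, Faf1 (0.850) for Cd5l and Ftl1-ps1 (0.749) for Mrc1. No gene was listed for more than 1 of the 9, and the mean of the 9 was most like Mbip at 0.785, below the best match of each gene except Mrc1.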

How the data were processed

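RNA of sorted marrow cells was sequenced from SMART-Seq v4 and Nextera XT libraries, per the labels' protocols. The authors deposited raw read counts per gene, with gene annotation and a gene length that per-length levels use. STAR 2.7.7a, FastQC 0.11.9 and edgeR 3.36.0 are named in the submitters' processing notes, with no role given. These notes name the human build hg38, whereas 54587 of 55335 gene identifiers in the deposited table match the mouse annotation GENCODE M21 (GRCm38), all 54587 with the same coordinates. The counting tool and strand setting are not given in the sources used here.

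The counts were modelled with edgeR 4.0.16 (R 4.3.3), using filterByExpr by group (minimum count 10, minimum total 15), TMM scaling, and a robust quasi-likelihood fit with 4 group coefficients over 14 libraries, giving 6 contrasts with Benjamini-Hochberg adjustment over 21509 genes. SEs were derived from each log2 fold change and its F statistic (change over root F). DESeq2 1.42.0, other scalings, no filter, a replicate block and leaving out each library were alternatives. Floors are 3 counts per library. A fold is a bound where a whole group is at 0. It sets the other group's mean CPM over the mean floor and leaves out the spread between libraries. An exact Poisson rate ratio with a 95% interval is given for 1 to 3 counts. The fit was tested on simulated data.

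All columns of per-sample values were mapped to samples by name (0 unassigned). Besides the 10 genes, the text names some of the 4 most abundant genes of each related list and of the 3 most abundant of each marker list. Fth1 and Calr, among the 4 most abundant of their lists, are not described. Also named are the nearest or the 3 nearest genes in pattern to each gene (prior count 2), and Cdh5, Pecam1 and Ptprc. In counts of a list, genes that passed the test are named. Members and lists were chosen with earlier results of these data known.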

Additional observations from a re-analysis of the deposited data

Results flagged for a closer look

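Timd4 in untreated replicate 4 stood apart from the other untreated libraries, at 0.519 CPM (15 counts) against 0 or 1 count in the others. Its gap to the next library was 0.942 of the group's range, above the 95% critical value of Dixon's test for 4 libraries. Of 17 groups of the 10 genes that could be examined in this way 1 was marked. For normal values chance marks about 1 in 20, but many of these groups are low counts with zeros, so that rate need not hold. Without this library the log2 fold change of Timd4 after TBI moved from -1.93 to 1.27 (edgeR adjusted p = 0.893), and the cause was not tested.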

How the results depend on the processing

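Over the 3 comparisons with untreated mice the number of called members was 1, 5 and 7 after TBI, IgG RIT and CD45 RIT. DESeq2 called 3 after TBI (C1qa, Cd5l and Csf1r), 3 for CD45 RIT against IgG RIT and 2 for IgG RIT against TBI. Over all genes it called 2485 of 21140, 10002 of 21140 and 2097 of 19500 in these comparisons. Same-numbered replicates did not pair (1 of 13 pairs over 0.1, correlations -0.0896 to 0.139). A fit with a replicate block called 0 after TBI, 1 after IgG RIT, 3 after CD45 RIT and 0 for CD45 RIT against TBI. Over all 21509 genes it called 38, 2063, 4062 and 3756 in these comparisons. The fits that left out 1 library also moved the number of calls over all genes. Leaving out 1 library gave 1 to 2 calls after TBI, 2 to 6 after IgG RIT, 4 to 7 after CD45 RIT, 1 to 3 for CD45 RIT against IgG RIT, 4 to 6 for CD45 RIT against TBI and 0 to 1 for IgG RIT against TBI. Without scaling factors C1qb after IgG RIT became -0.26 and Mrc1 for IgG RIT against TBI -0.15, neither called. Signs turned between leave-one-out fits for Timd4 after TBI (-2.45 to 1.27), IgG RIT (-4.81 to 6.22) and CD45 RIT (-4.72 to 10.56), C1qb after IgG RIT (-0.16 to 0.78) and C1qc after CD45 RIT (-0.69 to 7.24). For CD45 RIT against IgG RIT they turned for C1qa (-6.74 to 4.67), C1qc (-4.62 to 3.50), Timd4 (-7.93 to 12.16) and Mrc1 (-0.54 to 0.70), and against TBI for C1qa (-6.23 to 5.25), C1qc (-2.56 to 5.53), Timd4 (-2.86 to 10.25) and Mrc1 (-0.30 to 1.02). For IgG RIT against TBI they turned for Timd4 (-2.87 to 5.53) and Cd5l (-0.17 to 2.00). Scaling moved the median log2 fold change of all genes from -0.16, -0.42 and -0.37 to -0.28, -0.94 and -1.08 without factors. The share of calls that were higher after IgG RIT went from 35.0% to 14.5% without factors and 46.7% with DESeq2 size factors. After CD45 RIT it went from 43.8% to 22.7% without factors and 52.8% with DESeq2 size factors. Mrc1, Cd5l and Marco, with at most 31, 35 and 14 counts in a library, are limited by these low counts, and a change in them may not be detectable.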
